A study of Homo sapiens with 12 samples.

Results

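The genes described here are 39 genes of the NRF2 pathway and of the antioxidant systems around it, chosen by name from a table of 58735 gene rows and measured in LPS-stimulated THP1 cells. They were kept in 7 groups by role: 4 regulators, 7 NRF2 targets of the thioredoxin system, quinone reduction and transport, 5 haem and iron genes, 10 glutathione genes, 6 peroxiredoxins, 4 pentose phosphate and NADPH genes and 3 superoxide and peroxide genes. THP1 is an established human monocytic leukaemia cell line, and its RNA was sequenced in 4 groups of 3 libraries. In mono-culture 400000 THP1 cells per well were grown alone, and in the other 3 groups they sat in a transwell insert above 500000 endothelial cells (ECs), which were human umbilical vein ECs. The ECs had been given DMSO (control ECs), etoposide, a topoisomerase inhibitor that makes them senescent (senECs), or etoposide followed by epigallocatechin gallate, a green tea catechin (EGCG-treated senECs). All groups were kept in endothelial medium for 24 h, and in all groups, mono-culture included, THP1 cells were then given 100 ng/ml LPS for 2 h before RNA was taken, so that no library shows unstimulated cells. Replicates were numbered 1, 2 and 3 in mono-culture and with control ECs, and 1, 2 and 5 with senECs and with EGCG-treated senECs. The labels do not say what a number marks, nor that replicates came from separate cultures, so that p-values measure the spread between these libraries only. All 39 genes passed the filter of 10 counts in total, together with 25873 genes in all.

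NRF2, encoded by NFE2L2, is a transcription factor that cells keep scarce while they are unstressed. KEAP1 holds it for degradation, and oxidants or electrophiles that modify KEAP1 let NRF2 build up, pair with a small MAF protein such as MAFG and bind antioxidant response elements. Its targets make and recycle glutathione, keep thioredoxin reduced, detoxify quinones, break down haem, store iron and supply NADPH, and in monocytes and macrophages the pathway is known for restraining the inflammatory response. Peroxiredoxins, glutathione peroxidases and catalase remove peroxides, and superoxide dismutases make peroxide from superoxide.

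The core of the antioxidant response element is shown first, because it is the sequence that NRF2 and small MAF proteins are known to bind. Binding was not measured here. The core TGACNNNGC was searched on both strands of RefSeq promoters of 300 bases on GRCh38.p14 (250 before the start and 50 after it). Of the 39 genes, 29 were matched to a promoter by symbol, and the others were ABCC1, FTH1, GSR, GSS, HMOX1, MGST2, PRDX1, PRDX6, SLC7A11 and SOD1. A match was found for 7 of the 29 genes and in 8 of their 42 promoters (19%), against 4687 of 35116 promoters in all (13.3%). The 8 windows below hold the matches that lie 31 bases or more before a start, in the direction of the gene, with the core in capitals. Where the core is on the opposite strand it reads GCNNNGTCA.
KEAP1, 54 bases before the start, chr19:10502807-10502835, minus strand: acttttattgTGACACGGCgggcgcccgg
KEAP1, 31 bases before the start, chr19:10502784-10502812, minus strand: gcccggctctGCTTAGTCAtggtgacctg
TXNRD1, 99 bases before the start, chr12:104215670-104215698, plus strand: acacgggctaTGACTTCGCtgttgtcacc
TXNRD1, 102 bases before a further start, chr12:104286920-104286948, plus strand: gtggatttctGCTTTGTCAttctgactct
GCLM, 34 bases before the start, chr1:93909446-93909474, minus strand: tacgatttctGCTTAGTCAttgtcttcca
GSTP1, 66 bases before the start, chr11:67583736-67583764, plus strand: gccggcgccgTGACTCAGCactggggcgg
PGD, 201 bases before the start, chr1:10398853-10398881, plus strand: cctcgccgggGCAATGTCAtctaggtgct
ME1, 137 bases before the start, chr6:83431170-83431198, minus strand: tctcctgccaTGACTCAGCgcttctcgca

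The cores of GSTP1 and ME1 also contain TGACTCA, the AP-1 motif, and in all promoters 0.561% hold a core that does. A further match of TXNRD1 began 8 bases before the start, and 1 of ME1 and the only match of MGST1 lay after it. A match describes letters, not a site that was bound, and the other 22 genes with a promoter held no such letters in these windows, which leaves enhancers and more distant promoters unseen.

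Levels of different genes were compared per length, as FPKM (counts per kilobase of exon, scaled to library size). FTL, the light chain of the iron store ferritin, was the highest with a mean of 3458 FPKM over the 12 libraries. GPX1, a glutathione peroxidase of the cytosol, followed at 629 FPKM, then TXN, the thioredoxin that reduces protein disulfides, at 198 FPKM, and FTH1, the ferritin heavy chain, at 146 FPKM. The 6 peroxiredoxins lay close together, from 40.4 FPKM (PRDX2) to 107 FPKM (PRDX6). NFE2L2 was at 39.8 FPKM, MAFG at 34.6, KEAP1 at 30.1 and SQSTM1, the p62 autophagy receptor that can draw KEAP1 away, at 16.7. TXNRD1, the reductase of thioredoxin, was at 28.2 FPKM, GCLM, the modifier subunit of glutamate-cysteine ligase, at 15.5 and ABCC1, an exporter of glutathione conjugates, at 11.2. NQO1, a quinone reductase, was at 5.73 FPKM, HMOX1, the haem oxygenase that splits haem, at 4.18, SLC7A11, the cystine importer, at 3.77, OSGIN1, a growth inhibitor induced by oxidative stress, at 1.09, and SRXN1, the sulfiredoxin that repairs over-oxidised peroxiredoxins, at 0.927. SLC40A1, the iron exporter ferroportin, was the lowest at 0.908 FPKM. No FPKM was computed for SOD2, whose symbol is shared by 2 overlapping gene models. Its counts came from 1 of 2 rows, and its exons overlap those of WTAP on the opposite strand. SRXN1 shares 2292 of its 2698 exonic bases with AL121758.1, a gene model on the same strand. FTH1 shares 1267 of 2030 with BEST1, and SQSTM1 1582 of 7654 with MRNIP, both on the opposite strand. How reads in shared bases were counted is not known, so that these levels may be too low.

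**Figure D1:**
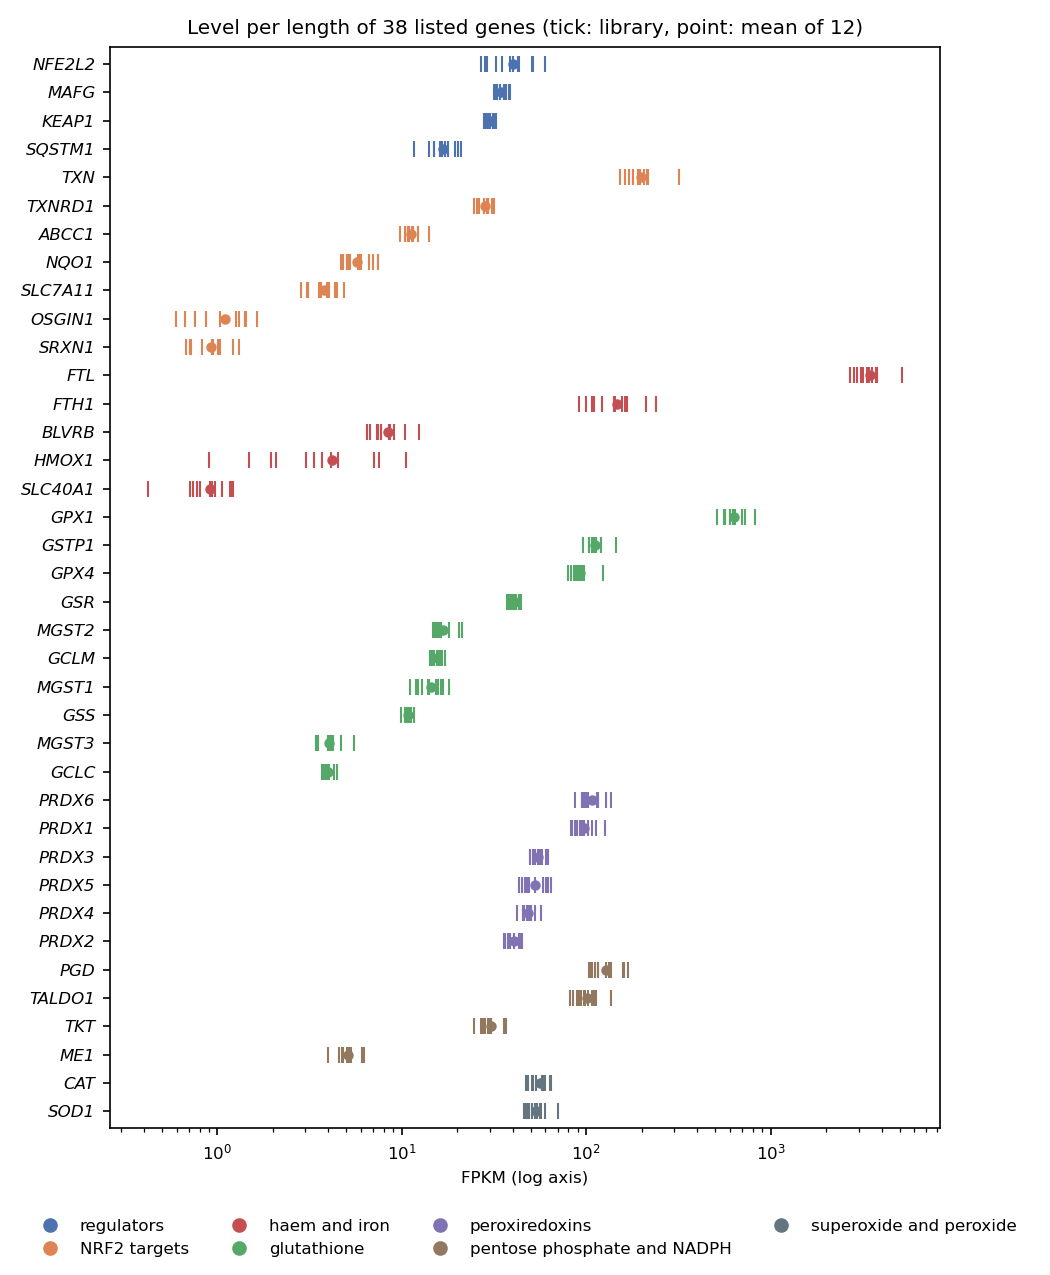
Level per length of 38 of the listed genes, as FPKM on a log axis. Each tick is 1 of 12 libraries and each point their mean, with colours for the groups by role. FTL stands at a mean of 3458 FPKM, and SLC40A1, SRXN1 and OSGIN1 at about 1.

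The total counts ran from 15439836 to 22092600 per library, and the 39 genes took 0.822% to 1.27% of them. CPM values, counts scaled to a common library size, used TMM factors between 0.912 and 1.04. The library of senEC replicate 5 stood apart: it had the lowest TMM factor and the largest share of counts on the listed genes, and it was the highest of the 12 libraries for 20 of the 39 genes, where it was the highest for 15% of all genes tested. All 12 monocyte markers had counts in every library, and their summed level ran from 2069 to 3041 CPM, highest in senEC replicate 5. CD14, the LPS co-receptor among them, passed the test for senECs against mono-culture with a log2 fold change of 2.09 (SE 0.42, edgeR adjusted p = 0.0363). Of 15 endothelial markers, MMRN1 and SOX17 were at 0 in all libraries and CDH5, VE-cadherin, had at most 1 count, and the summed level of the list lay between 21.9 and 34.8 CPM, most of it EGFL7, with mono-culture between 21.9 and 27.9 CPM. RNA was taken from the THP1 cells of a library together, where fewer cells of a kind and less RNA per cell cannot be told apart.

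The first question was whether senECs alter these genes in THP1 cells, compared with control ECs. No listed gene passed the test: edgeR's quasi-likelihood test with Benjamini-Hochberg adjustment called 0 of 39 genes (0% of all genes tested), and DESeq2 called 0 (0%). At an unadjusted p under 0.05 there were 9 genes, against 6.61% of all genes. All 9 had the higher mean with senECs (2.86% of all genes) and 0 the lower (3.75%). The log2 fold change was above 0 for 29 of the 39 genes, against 49.2% of all genes, with a median of 0.17 against -0.0066 over all genes. Without senEC replicate 5 it was above 0 for 24 genes, the median was 0.056, and 2 genes had an unadjusted p under 0.05 (2.8% of all genes). For 7 genes there was no overlap, 6 of them higher with senECs (5.31% of all genes) and 1 lower (5.66%).

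Among the regulators the values of both groups overlapped for all 4 genes, with log2 fold changes between -0.0078 (MAFG) and 0.22 (SQSTM1). NFE2L2 read 174, 210 and 303 CPM with control ECs (replicates 1, 2 and 3) and 193, 230 and 358 CPM with senECs (replicates 1, 2 and 5). The spread within each group was wider than the distance between their means, and the log2 fold change was 0.19 (95% interval -0.31 to 0.68).

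The group of NRF2 targets of the thioredoxin system, quinone reduction and transport did not share a direction, with 3 of 7 above 0. OSGIN1 read 2.30, 2.06 and 2.61 CPM with control ECs and 3.56, 4.97 and 4.90 CPM with senECs. Every senEC library was above every control EC library, with a log2 fold change of 0.94 (SE 0.25, unadjusted p = 0.00137, adjusted p = 0.728 by edgeR). NQO1 had a log2 fold change of 0.35 (SE 0.15, adjusted p = 0.728) and overlapped, since senEC replicate 1 at 15.2 CPM was below all control EC libraries. SRXN1 went the other way, with 2.78, 3.30 and 2.56 CPM for control ECs and 2.22, 1.91 and 1.93 CPM for senECs, and these groups did not overlap (log2 fold change -0.51, SE 0.26, adjusted p = 0.728). TXN reached 365 CPM in senEC replicate 5 and lay between 194 and 243 CPM in the other 5 libraries of the comparison. SLC7A11 and TXNRD1 had log2 fold changes of -0.25 and -0.15, and ABCC1 of -0.023.

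The haem and iron genes held the largest fold change of the comparison. HMOX1 read 3.55, 8.92 and 9.95 CPM with control ECs and 4.70, 18.0 and 25.2 CPM with senECs. Replicates 2 and 5 with senECs were above all control EC libraries while replicate 1 was not, and the log2 fold change was 1.09 (SE 0.50, unadjusted p = 0.0430, adjusted p = 0.728). Within a replicate number the ratio was 1.32 for number 1 and 2.02 for number 2, and the fitted log2 fold change was 0.60 without senEC replicate 5. FTL read 2473, 2721 and 3110 CPM with control ECs and 2778, 3329 and 4545 CPM with senECs, with a log2 fold change of 0.36 (SE 0.15, adjusted p = 0.728) and ratios of 1.12 and 1.22 within numbers 1 and 2. BLVRB, a biliverdin reductase acting after haem oxygenase, read 10.9, 12.4 and 13.0 CPM against 14.3, 15.3 and 21.0 CPM with senECs, without overlap (log2 fold change 0.48, SE 0.17, adjusted p = 0.728). FTH1 had a log2 fold change of 0.43 (95% interval -0.11 to 0.96), and its pseudogenes held 2.07% as many counts as FTH1 itself, so that some reads may have been divided between them. SLC40A1 pointed the other way at -0.45 (95% interval -1.02 to 0.11), lowest in senEC replicate 5 with 1.81 CPM. The median of the 5 haem and iron genes was 0.43, and 0.14 without senEC replicate 5, with 4 of 5 above 0 in both.

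Of the glutathione genes, 7 of 10 had a log2 fold change above 0. GPX4, which reduces lipid peroxides in membranes, read 166, 160 and 174 CPM with control ECs and 184, 195 and 249 CPM with senECs. These did not overlap, and senEC replicate 5 was the highest of all libraries (log2 fold change 0.33, SE 0.11, unadjusted p = 0.00604, adjusted p = 0.728). The enzymes that build glutathione were close to 0: GCLC, the catalytic subunit of glutamate-cysteine ligase, at 0.049, its modifier GCLM at -0.035 and glutathione synthetase GSS at 0.035, all with 95% intervals between -0.24 and 0.27. Glutathione reductase GSR was at -0.0065, the transferases GSTP1, MGST1, MGST2 and MGST3 at 0.20, 0.15, 0.12 and -0.086, and GPX1 at 0.24. Without senEC replicate 5, 5 of 10 were above 0, the median of the group went from 0.082 to 0.019, and none had an unadjusted p under 0.05.

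All 6 peroxiredoxins had a log2 fold change above 0, between 0.10 (PRDX3, of mitochondria) and 0.23 (PRDX5). PRDX2 read 85.4, 79.0 and 76.0 CPM with control ECs and 90.4, 92.8 and 93.0 CPM with senECs, without overlap (log2 fold change 0.20, SE 0.095, adjusted p = 0.728). PRDX4, of the endoplasmic reticulum, did not overlap either, at 0.15 (SE 0.10). The 6 intervals together ran from -0.11 to 0.52. Without senEC replicate 5 all 6 were again above 0, with a median of 0.067 in place of 0.17, and 0 had an unadjusted p under 0.05 in place of 1.

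In the pentose phosphate and NADPH group, TKT, the transketolase of the non-oxidative branch, read 262, 277 and 257 CPM with control ECs and 288, 351 and 340 CPM with senECs. These did not overlap (log2 fold change 0.30, SE 0.11, adjusted p = 0.728), and within numbers 1 and 2 the ratios were 1.10 and 1.27. TALDO1, the transaldolase of the same branch, and PGD, which makes NADPH in the oxidative branch, had log2 fold changes of 0.29 and 0.27 with overlapping groups, and the malic enzyme ME1 one of -0.12. The median of the 4 genes was 0.28, and 0.14 without senEC replicate 5. SOD1, SOD2 and CAT, the cytosolic and mitochondrial superoxide dismutases and catalase, had log2 fold changes of 0.20, 0.17 and 0.077, and their groups overlapped. Without senEC replicate 5, 1 of these 3 was above 0, with a median of -0.0074 in place of 0.17.

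At replicate number 1 senECs gave the higher level for 27 of 39 genes (52.8% of all genes), and at number 2 for 30 (47.4%). It was higher in both for 22 genes (27.3% of all genes) and lower in both for 4 (23.8%). Numbers 3 and 5 have no partner in this comparison. The library of senEC replicate 5 also had the highest summed level of 10 LPS response genes, at 5650 CPM. SenEC replicates 1 and 2 read 2455 and 2873 CPM, and control EC replicates 1, 2 and 3 read 2312, 2913 and 4724 CPM. Replicate 5 of the EGCG-treated senECs read 4991 CPM. The part of the LPS response genes in the values of the listed genes was not tested.

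**Figure D2:**
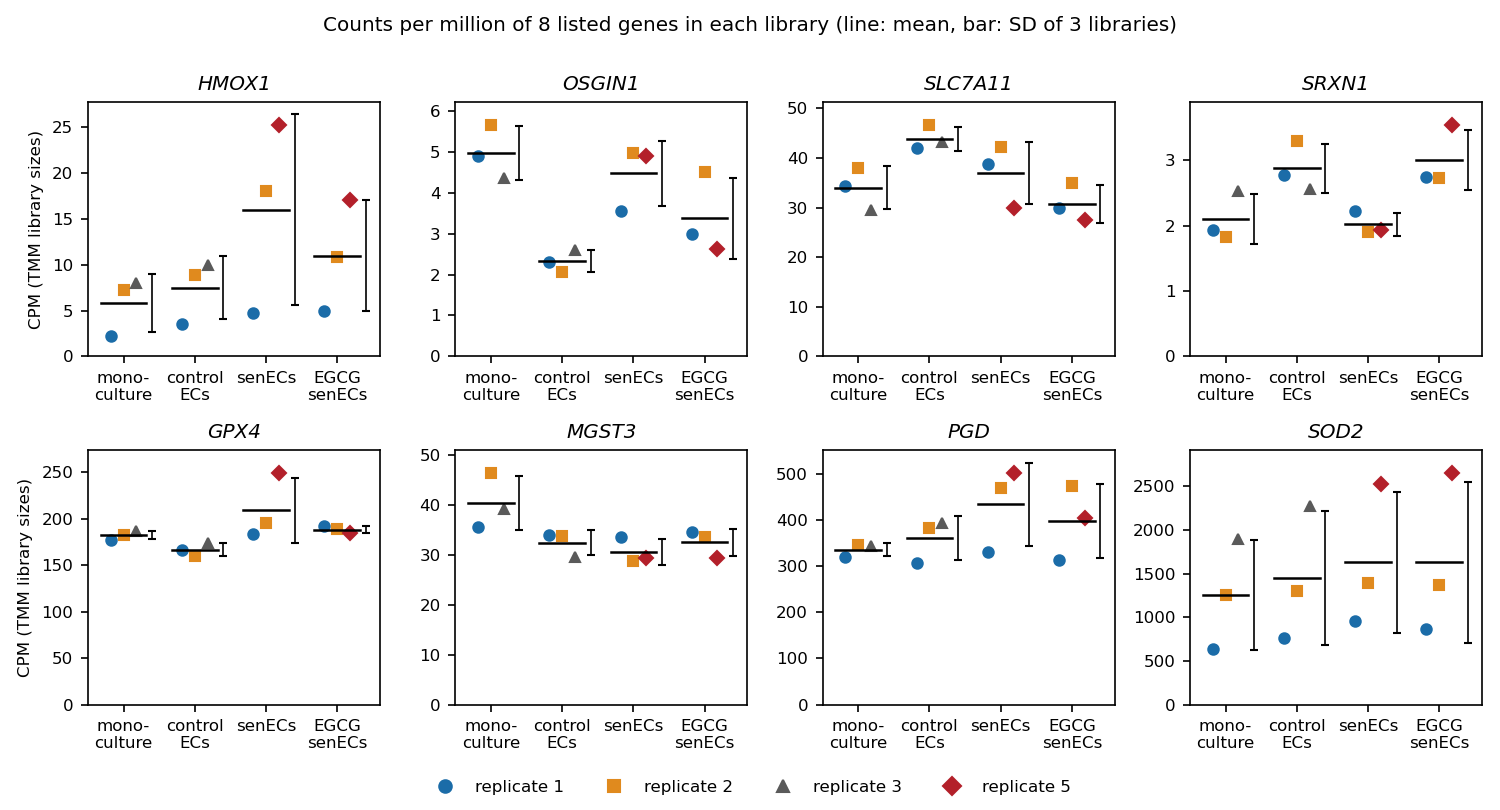
CPM of 8 listed genes in each of the 12 libraries, on a linear axis from 0, with a marker for each replicate number, a line at the mean and a bar of 1 SD of 3 libraries. HMOX1 with senECs spreads from 4.70 to 25.2 CPM, OSGIN1 with control ECs reaches 2.61 CPM, just under the lowest library of the other groups at 2.62 CPM, and SOD2 follows the replicate number in every group.

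The next question was whether EGCG treatment of the senECs alters the genes. EdgeR called 0 of the 39 genes for EGCG-treated senECs against senECs (0% of all genes), and DESeq2 called 0 (0%). SRXN1 was the 1 gene with an unadjusted p under 0.05 (2.22% of all genes). It had the higher mean with EGCG-treated senECs (1.24%), and 0 genes had the lower (0.982%). The log2 fold change was above 0 for 7 genes (49.9% of all genes) and below 0 for 32 of 39, with a median of -0.11 against 0 over all genes. Without senEC replicate 5 it was below 0 for 22 genes, with a median of -0.0084. This comparison shares its senEC libraries with the previous one, so that a high library such as senEC replicate 5 moves them in opposite directions.

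SRXN1 read 2.22, 1.91 and 1.93 CPM with senECs and 2.74, 2.73 and 3.54 CPM with EGCG-treated senECs. The groups did not overlap, at between 31 and 75 counts per library over all groups, and the log2 fold change was 0.57 (SE 0.26, unadjusted p = 0.0428, adjusted p = 1 by edgeR). HMOX1 read 5.00, 10.8 and 17.1 CPM with EGCG-treated senECs, inside the range of the senEC libraries, and its log2 fold change was -0.53 (95% interval -1.57 to 0.51). Its ratio to the senEC library of the same number was 1.06, 0.599 and 0.678 for numbers 1, 2 and 5, and the log2 fold change was -0.040 without senEC replicate 5. OSGIN1 had a log2 fold change of -0.41 (95% interval -0.93 to 0.11), with ratios of 0.838, 0.907 and 0.536 within numbers 1, 2 and 5. GCLC and GSR were the genes that did not overlap with lower values in EGCG-treated senECs, at -0.078 and -0.14, and over all genes 2.31% did so, with 3.17% higher without overlap.

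All 6 peroxiredoxins and all 4 pentose phosphate and NADPH genes had a log2 fold change below 0, down to -0.20 in both groups (PRDX5 and TALDO1). Without senEC replicate 5, 3 of 6 and 3 of 4 were below 0. The intervals of the peroxiredoxins ran from -0.50 to 0.22, those of the glutathione genes from -0.45 to 0.35 and those of the pentose phosphate and NADPH genes from -0.47 to 0.32. Within replicate numbers the level was lower with EGCG-treated senECs for 22, 21 and 33 of the 39 genes at numbers 1, 2 and 5. It was higher for 17, 18 and 6, against 48.9%, 51% and 43.5% of all genes. It was lower at all 3 numbers for 9 genes (8.43% of all genes) and higher at all 3 for 3 (9.3%). The median log2 ratio of the listed genes was -0.032, -0.010 and -0.23 at numbers 1, 2 and 5.

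**Figure D3:**
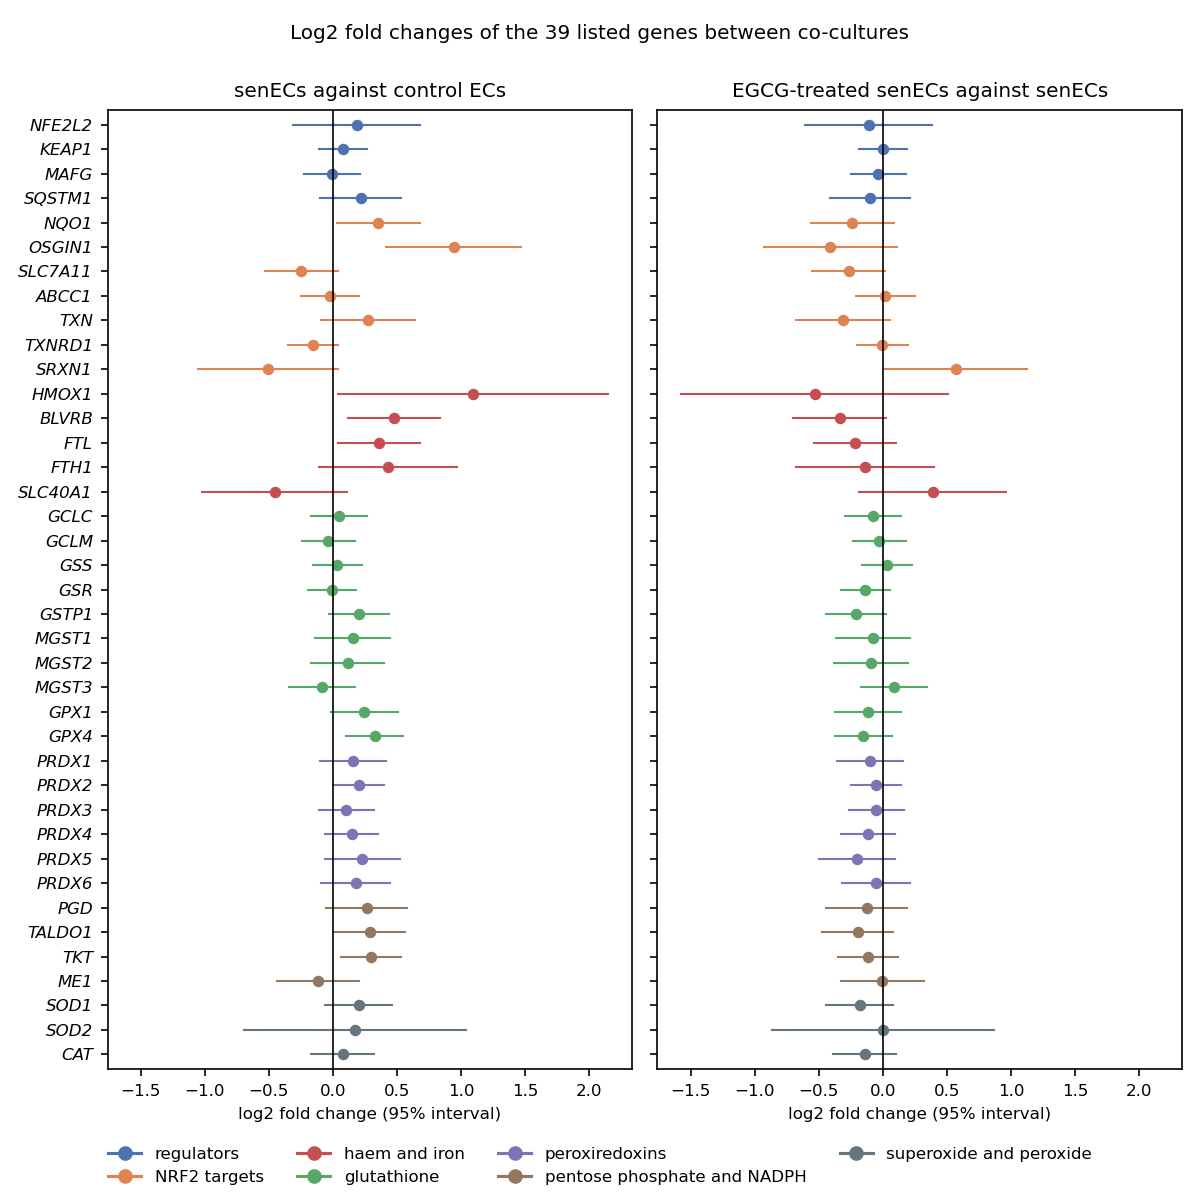
Log2 fold changes of the 39 genes with 95% intervals, for senECs against control ECs on the left and EGCG-treated senECs against senECs on the right, coloured by role. On the left 29 points lie above 0 and on the right 32 below 0, and both panels share the senEC libraries.

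For EGCG-treated senECs against control ECs, again 0 of 39 genes were called by edgeR (0% of all genes) and 0 by DESeq2 (0%), with 1 gene at an unadjusted p under 0.05 (4.55% of all genes; 0 higher against 1.72% and 1 lower against 2.83%). That gene was SLC7A11, which read 41.9, 46.6 and 43.1 CPM with control ECs and 29.9, 35.0 and 27.5 CPM with EGCG-treated senECs. All libraries with EGCG-treated senECs were below all with control ECs (log2 fold change -0.51, SE 0.14, unadjusted p = 0.00126, adjusted p = 0.979). With senECs it read 38.8, 42.2 and 30.0 CPM and overlapped both groups. OSGIN1 at 2.99, 4.51 and 2.62 CPM lay above the control EC libraries, with its lowest library only just above their highest (log2 fold change 0.53, SE 0.26, adjusted p = 0.979). HMOX1 had a log2 fold change of 0.56 (95% interval -0.50 to 1.62), and of 0.081 without replicate 5 of the EGCG-treated senECs. The groups did not overlap for 6 genes, 3 higher (4.04% of all genes) and 3 lower (5.45%), and 27 of 39 log2 fold changes were above 0 (50% of all genes), with a median of 0.061 against 0 over all genes. Of the 39 genes 19 were higher at both shared numbers (26.4% of all genes) and 4 lower (23.7%).

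Co-culture itself was compared with mono-culture. For control ECs, edgeR called 0 of 39 genes (0.143% of all genes) while DESeq2 called 1, OSGIN1 (0.448% of all genes). At an unadjusted p under 0.05 there were 5 genes (6.52% of all genes), 1 higher (3.17%) and 4 lower (3.35%). OSGIN1 read 4.91, 5.65 and 4.35 CPM in mono-culture, at 79 to 105 counts, against 2.30, 2.06 and 2.61 CPM with control ECs, at 47 to 48 counts. The groups did not overlap, with a log2 fold change of -1.10 (SE 0.25, unadjusted p = 0.000324, edgeR adjusted p = 0.135). SLC7A11 was above mono-culture in every control EC library, which read 34.4, 38.1 and 29.4 CPM against 41.9, 46.6 and 43.1 CPM (log2 fold change 0.37, SE 0.14, adjusted p = 0.624).

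Of the glutathione genes 3 of 10 had an unadjusted p under 0.05 in this comparison, all with the lower mean with control ECs. GPX1 read 899, 1002 and 1044 CPM in mono-culture and 860, 733 and 803 CPM with control ECs, without overlap (log2 fold change -0.30, SE 0.12, adjusted p = 0.735). MGST3, a microsomal glutathione transferase, read 35.6, 46.2 and 39.2 CPM and 33.9, 33.8 and 29.5 CPM, again without overlap (log2 fold change -0.32, SE 0.12, adjusted p = 0.672). MGST1, of the same family, had a log2 fold change of -0.31 (SE 0.14, adjusted p = 0.752) with overlapping groups. The groups did not overlap for 2 genes that were higher with control ECs (6.25% of all genes) and 5 that were lower (6.51%). SRXN1 was among the higher, at 1.93, 1.83 and 2.53 CPM in mono-culture and 2.78, 3.30 and 2.56 CPM with control ECs (log2 fold change 0.46). NQO1 was among the lower, at 19.5, 21.6 and 18.7 CPM against 16.4, 16.7 and 15.6 CPM. Over the 39 genes the median log2 fold change was 0.023, with 22 above 0 (50.7% of all genes), and it was 0.0051 over all genes. At all 3 numbers 5 genes were higher with control ECs (15% of all genes) and 11 lower (14.9%).

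For senECs against mono-culture the count was 0 of 39 by edgeR (0.309% of all genes) and 0 by DESeq2 (1.31%). At an unadjusted p under 0.05 there were 10 genes (11% of all genes), 8 with the higher mean with senECs (5.76%) and 2 with the lower (5.24%). HMOX1 read 2.18, 7.27 and 8.04 CPM in mono-culture against 4.70, 18.0 and 25.2 CPM with senECs. The lowest senEC library lay inside the range of mono-culture and the other two above it, and the log2 fold change was 1.44 (SE 0.52, unadjusted p = 0.0117, adjusted p = 0.309). Without senEC replicate 1 it was 1.88 and passed the test (edgeR adjusted p = 0.0494), the only fit with 1 library left out that did. Without senEC replicate 5 it was 0.946. SLC40A1 had a log2 fold change of -0.73 (SE 0.27, adjusted p = 0.328) without overlap, at 30 counts or more per library. TKT, PGD and TALDO1 had log2 fold changes of 0.32, 0.37 and 0.31 (adjusted p = 0.289, 0.380 and 0.394), and TKT did not overlap. PRDX1, PRDX2 and PRDX6 were at 0.29, 0.25 and 0.30, and FTL at 0.36. MGST3 was again below mono-culture in every senEC library (log2 fold change -0.40, SE 0.12, adjusted p = 0.214). The groups did not overlap for 4 genes that were higher with senECs (8.18% of all genes) and 3 that were lower (8.5%). At both shared numbers 18 were higher (27.6%) and 11 lower (27.1%). The log2 fold change was above 0 for 28 genes (48% of all genes) with a median of 0.11, against -0.015 over all genes, and without senEC replicate 5 for 22 genes with a median of 0.025, with 4 genes at an unadjusted p under 0.05 (6.19% of all genes).

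For EGCG-treated senECs against mono-culture, edgeR called 0 of 39 genes (0.213% of all genes) and DESeq2 0 (0.873%), with 4 genes at an unadjusted p under 0.05 (8.58% of all genes). They were OSGIN1 (log2 fold change -0.56, SE 0.25), MGST3 (-0.31, SE 0.12) and TXNRD1 (-0.20, SE 0.094) with the lower mean (4.53% of all genes), and PRDX2 (0.20, SE 0.095) with the higher (4.05%). Their adjusted p lay between 0.499 and 0.580. HMOX1 had a log2 fold change of 0.91 (95% interval -0.18 to 1.99). The log2 fold change was above 0 for 22 genes (49.6% of all genes). Without overlap 3 genes were higher (6.4%) and 2 lower (7.72%), and at both shared numbers 17 were higher (27.5%) and 8 lower (27.2%).

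When the 3 co-cultures were averaged, edgeR called 0 of 39 genes (0.723% of all genes), and DESeq2 called 1, MGST3 (1.7%). At an unadjusted p under 0.05 there were 5 genes (10.7%), 1 higher (4.88%) and 4 lower (5.84%), and 26 log2 fold changes were above 0 (47.6%). The log2 fold changes ran from -0.61 (OSGIN1) to 0.90 (HMOX1), with SOD2 at 0.32. MGST3 was lower in all 9 co-culture libraries, between 28.8 and 34.5 CPM, than in all 3 of mono-culture, between 35.6 and 46.2 CPM. Its log2 fold change was -0.34 (SE 0.098, edgeR adjusted p = 0.147), and MGST3 was the only listed gene without overlap in this average, where 1.64% of all genes were lower and 1.77% higher without overlap. The comparisons with mono-culture share its 3 libraries.

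The libraries of a group were then compared by replicate number. In a model with group and number, 12 of 39 genes differed by number (edgeR adjusted p under 0.05, 9.61% of all genes). For 11 of them numbers 2, 3 and 5 were all above number 1 (4.89% of all genes), none had all 3 below it (3.28%), and SLC7A11 went both ways. The 11 were NFE2L2 and SQSTM1 of the regulators, TXN, then HMOX1, FTL and FTH1 of the haem and iron genes, MGST1, PRDX6, PGD and TALDO1, and SOD2. The library numbered 1 was the lowest of its group in all 4 groups for 15 genes (5.41% of all genes).

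SOD2, the mitochondrial superoxide dismutase and a gene known to be induced by LPS, read 631, 1250 and 1892 CPM in mono-culture, 761, 1305 and 2274 CPM with control ECs, 963, 1397 and 2527 CPM with senECs and 867.8, 1370 and 2649 CPM with EGCG-treated senECs. In every group replicate 1 was the lowest and replicate 3 or 5 the highest, and the 4 groups overlapped throughout. The log2 fold change against mono-culture was 0.37 for senECs and for EGCG-treated senECs (95% interval -0.49 to 1.24 in both), and it changed sign when replicate 5 of the co-culture was left out. The log2 differences of numbers 2, 3 and 5 from number 1 were 0.74, 1.51 and 1.57. HMOX1 had differences of 1.52, 1.67 and 2.09, FTH1 of 0.47, 0.76 and 1.04 and NFE2L2 of 0.43, 0.73 and 0.89. FTH1 read 186, 287 and 338 CPM in mono-culture and 218, 330 and 487 CPM with senECs, ordered by number in both. Glutathione synthesis and reduction did not follow the number: the log2 differences of GCLC, GCLM, GSS and GSR from number 1 lay between -0.095 (GCLM, number 5) and 0.092 (GSS, number 5), and none of these genes was called.

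All 10 LPS response genes differed by number as well, with median log2 differences of 0.57, 1.21 and 1.52 for numbers 2, 3 and 5, and so did 8 of 12 monocyte markers (0.11, 0.26 and 0.25). The summed level of the LPS response genes in mono-culture was 2060, 2929 and 4127 CPM for replicates 1, 2 and 3, and the other groups were ordered alike. The part of the LPS response in the values of SOD2, HMOX1 and ferritin was not tested. This model left 5 residual degrees of freedom per gene, and edgeR pooled the spread over genes with a median prior of 1200 degrees of freedom, so that its p-values assume nearly the same spread for all genes of a level. Numbers 3 and 5 each occur in 2 groups only.

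**Figure D4:**
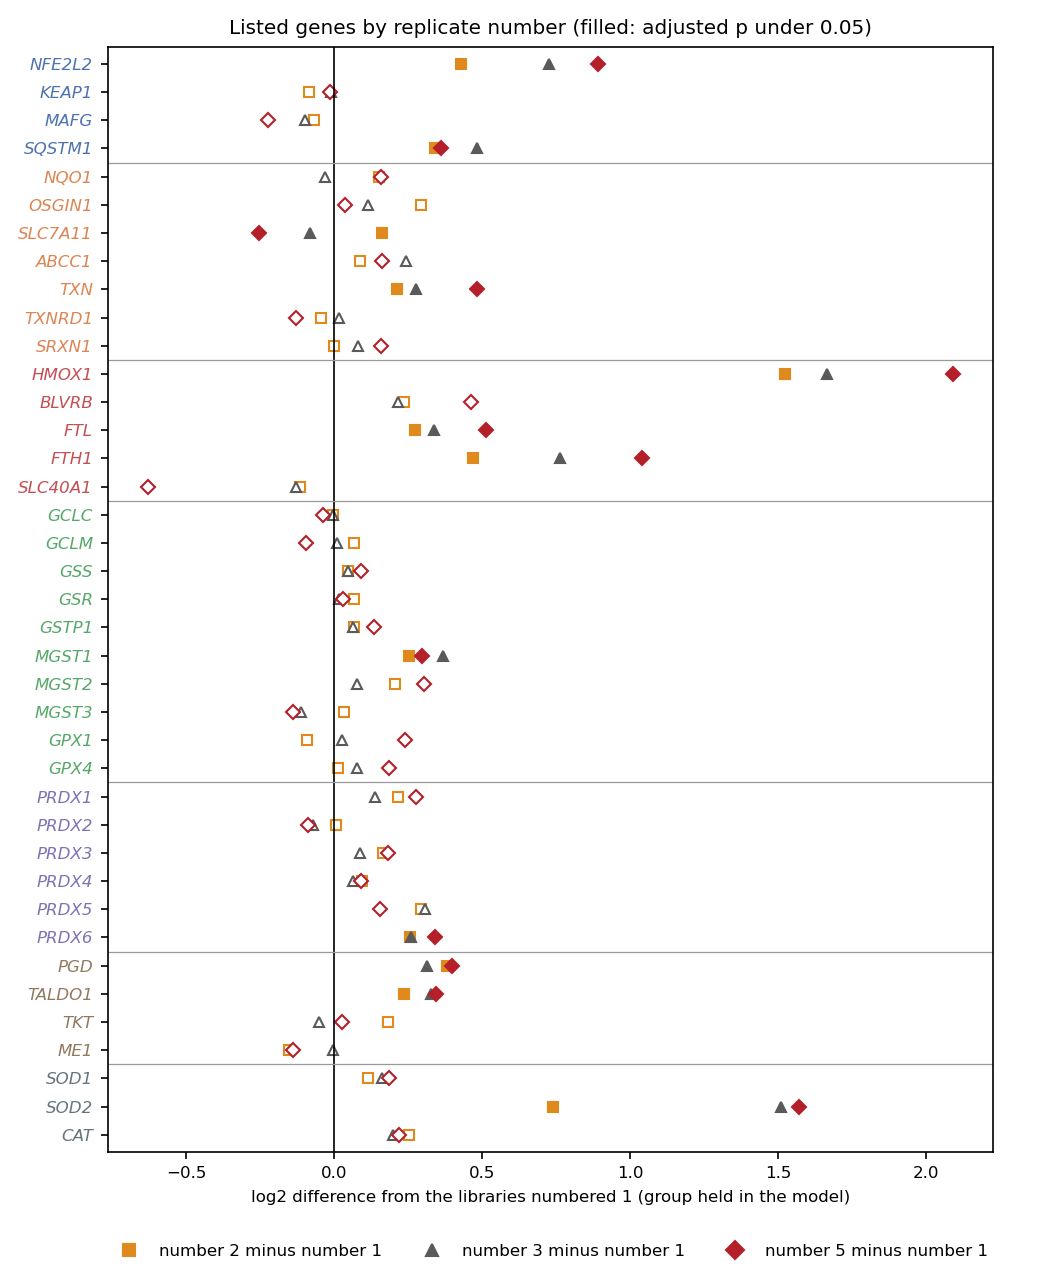
Log2 differences of the libraries numbered 2, 3 and 5 from those numbered 1, in a model that holds the group, for the 39 genes in order of role. Filled markers have an edgeR adjusted p under 0.05 for the number, which 12 genes reach, with SOD2 and HMOX1 furthest from 0 at up to 1.57 and 2.09.

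**Figure D5:**
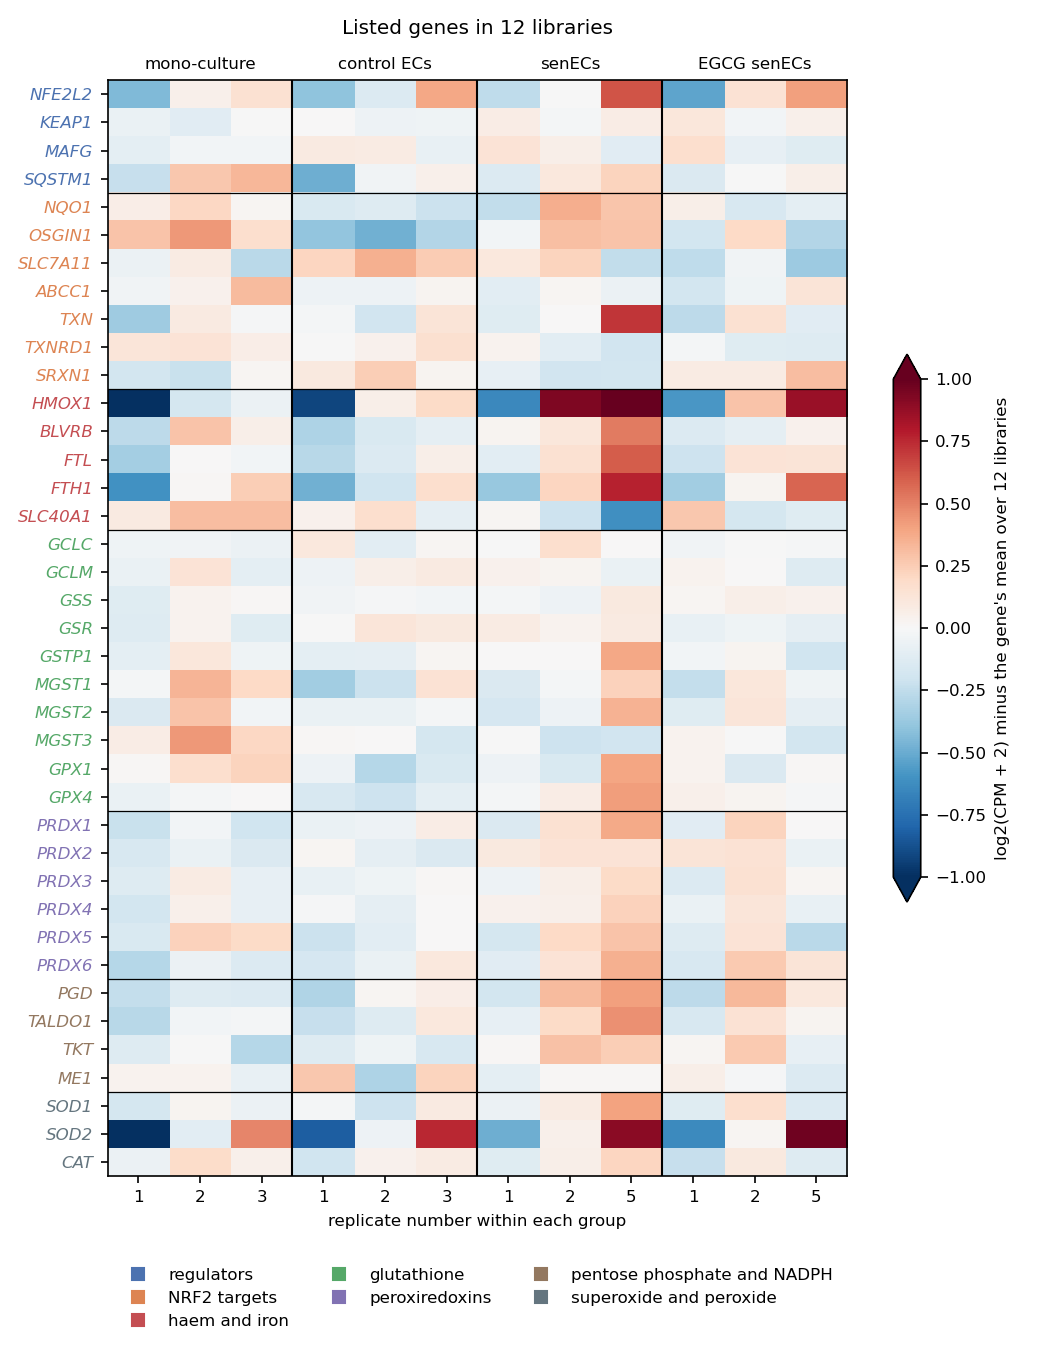
Log2(CPM + 2) of the 39 genes in the 12 libraries, each minus the mean of that gene over all 12, with colours ending at 1 and -1. Columns are ordered by group and replicate number. The libraries numbered 1 are blue for NFE2L2, HMOX1, FTH1 and SOD2 in all 4 groups, and senEC replicate 5 is the highest library for 20 genes.

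Further genes of the pathway were read from a list of 76, of which 72 passed the filter: other regulators such as BACH1, CUL3, MAFF and MAFK, other targets such as the aldo-keto reductases and SLC3A2, other thioredoxins and glutaredoxins, and other glutathione, pentose phosphate, iron and superoxide genes. EdgeR called 0 of 72 in each of the 7 comparisons. DESeq2 called 2 in the averaged comparison with mono-culture (1.7% of all genes) and 0 in the other 6. For senECs against control ECs 7 had an unadjusted p under 0.05, all with the higher mean with senECs (2.86% of all genes), and 50 of 72 log2 fold changes were above 0 (49.2% of all genes) with a median of 0.11. For EGCG-treated senECs against senECs 1 had an unadjusted p under 0.05, with the lower mean (0.982% of all genes), and 19 of 72 were above 0 (49.9%) with a median of -0.072. Both comparisons share the senEC libraries, and these 72 genes were not read without senEC replicate 5. For control ECs against mono-culture 1 was higher (3.17% of all genes) and 3 were lower (3.35%) at that level, with 23 above 0 (50.7%) and a median of -0.077. By replicate number 22 of the 72 were called (9.61% of all genes).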

How the data were processed

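RNA-sequencing of THP1 cells covered 12 libraries in 4 groups of 3, grouped by the sample labels. Raw counts, deposited by the authors as whole numbers for each gene symbol and not normalized, came from reads aligned with HISAT2 to hg38 per the labels. The counting program and the annotation are not given in the sources used here. A further 4 count columns match no described sample and were not used. Rows were matched to GENCODE release 29 (GRCh38) for positions and exonic lengths.

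From the deposited counts, CPM (TMM library sizes) and FPKM were computed, and the 25873 genes that reached 10 counts over the 12 libraries were tested with edgeR 4.0.16 (quasi-likelihood, all 12 libraries in 1 model, no term besides the group) in R 4.3.3, with limma 3.58.1, at a Benjamini-Hochberg adjusted p of 0.05. DESeq2 1.42.0 was an alternative, as were other filters, size factors, a term for the replicate number, subsets of libraries and each library left out in turn. Each SE was taken as the absolute log2 fold change over the root of its F statistic, and 95% intervals used the t distribution with its residual and prior degrees of freedom. The scripts were tested on simulated data. Totals per library ran from 15439836 to 22092600 counts, and with 3 libraries per group the spread between libraries also limits the precision.

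The 39 genes, the further lists and the tests were chosen with earlier results of these data known, so that they are not independent evidence. The rule for named genes covered listed genes called with or without a term for the replicate number. It also covered the 2 largest log2 fold changes per comparison among genes with a mean of at least 1 CPM. For some of them the log2 fold change was given without an SE or an adjusted p. Others whose groups did not overlap or whose unadjusted p was under 0.05 were chosen after their values were seen. Figures used matplotlib 3.10.9 in Python 3.11.15.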

Additional observations from a re-analysis of the deposited data

How the results depend on the processing

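No listed gene was called in any comparison in the main edgeR fit, with the filter of 10 counts and no replicate term (0 of 39). In other fits the counts moved as follows. DESeq2 called 1 gene for control ECs against mono-culture and 1 for the averaged co-cultures (116 and 439 over all genes). Testing every gene with a count called 1 for control ECs against mono-culture, 3 for senECs against mono-culture (SOD2, PGD and HMOX1), 1 for EGCG-treated senECs against mono-culture, 2 for the average, 1 for senECs against control ECs (HMOX1) and, against the same controls, 1 with EGCG-treated senECs (SLC7A11), where over all genes it called 223, 588, 377, 582, 114 and 43. In the same order, with 0 for EGCG-treated senECs against senECs, the replicate block called 4 (GPX1, MGST1 and OSGIN1 lower, SLC7A11 higher), 3, 2, 3, 1 and 0, and the replicate block with numbers 3 and 5 joined called 2, 11, 2, 5, 5 and 1, with 400, 1407, 782, 1243, 268 and 60 over all genes. The replicate block without joined numbers moved the calls over all genes to 469, 709, 424, 824, 153 and 34, with 13 for EGCG-treated senECs against senECs. The numbers did not meet the rule used for a pairing: of 14 same-numbered pairs 10 had a correlation of deviations over 0.1. The 14 lay between 0.034 and 0.563, against a median of -0.137 for different-numbered pairs. Pairs of number 1 were the closest, between 0.451 and 0.563, and 8 of 12 libraries correlated best with their own number. Libraries numbered 3 also correlated with those numbered 5, between 0.361 and 0.517. A pairing is therefore not excluded. Chosen after seeing the data, a fit to libraries numbered 1 and 2 with the replicate block called 2, 3, 2, 5, 1 and 1 (442, 538, 768, 938, 112 and 199 over all genes), and a fit to numbers 2, 3 and 5 called 1 (HMOX1) for senECs against mono-culture and 1 for the average (175 and 213 over all genes). Leaving out each library in turn called 0 to 1 genes for senECs against mono-culture (HMOX1 without senEC replicate 1) and 0 in the other 6 comparisons. The log2 fold change of SOD2 reversed to -0.093 without senEC replicate 5 (range to 0.79), for EGCG-treated senECs to -0.17 without their replicate 5 (to 0.79), and for the average to -0.0050 without mono-culture replicate 1 (to 0.73). By replicate number 9, 13 and 14 genes were called with filterByExpr, DESeq2 size factors and joined numbers, against 12 (9.61% of all genes). The shares over all genes in those other fits are not given here, so that all genes may have moved alike. The cause of these moves was not tested. The fit to only the libraries compared was not run for the average, whose groups are all 12 libraries. With 3 libraries per group and genes such as OSGIN1 at 47 counts, small differences were not detectable.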
